A study of Homo sapiens with 44 samples.

Results

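The genes described here encode the proteins of the mitochondrial ribosome and are those whose symbol is MRPL or MRPS followed by a digit. By that rule 81 of the 18797 genes of the GAS41 experiment and the same 81 symbols among the 21159 genes of the doxorubicin experiment are members. Of these, 77 are protein names, 48 MRPL (large subunit) and 29 MRPS (small subunit), and the other 4 are the antisense RNA MRPL23-AS1 and the pseudogenes MRPL42P5, MRPL45P2 and MRPS31P5. A gene was tested if at least 3 libraries had at least 10 reads; 80 of the 81 passed in each experiment, and MRPL42P5, at no more than 4 normalized reads in any library, did not. Names and proteins differ in places. MRPS36, in current annotation KGD4, is a subunit of the oxoglutarate dehydrogenase complex and not of the ribosome, MRPS18A and MRPS30 are found in the large subunit, and MRPL58 carries the older symbol ICT1 in these tables, which puts it outside the rule.

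The mitochondrial ribosome makes the few proteins that mitochondrial DNA encodes, all of them core subunits of the respiratory chain and the ATP synthase. Its RNAs come from mitochondrial DNA, whereas all its proteins are encoded in the nucleus, made in the cytosol and imported. Some of the proteins have bacterial homologues and others were added during mitochondrial evolution. Nuclear factors such as MYC, NRF1, the ETS factor GABP, YY1 and the PGC-1-related coactivator PPRC1 are known to act on nuclear genes for mitochondrial proteins, and growing tumour cells such as colon cancer cells make large amounts of them.

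HCT116 is a human colorectal carcinoma line, here p53+/+. In the GAS41 experiment 4 groups of 3 biological replicates were compared: WT cells, GAS41-KO cells, GAS41-KO cells with stable expression of wild-type GFP-Flag-GAS41 (wt rescue), and GAS41-KO cells with stable expression of GFP-Flag-GAS41 carrying Y74A and W93A (mut rescue). GAS41 is the product of YEATS4, a reader of acylated histone H3, and the series addresses H3K27 crotonylation in repression; the 2 substitutions lie in its reader domain. How the knockout was made, and whether a group is 1 clone, is not given in the sources used here. In the doxorubicin experiment HCT116 p53+/+ cells received 500 nM doxorubicin, an anthracycline that damages DNA, or DMSO, with 3 replicates each; the duration is not given. The GAS41 libraries were made from poly-A RNA and read on a BGISEQ-500, and the doxorubicin libraries were read on a HiSeq 2500. The experiments were normalized separately, so levels are set side by side within an experiment only.

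Libraries held 16857982 to 18546135 reads in the GAS41 experiment and 17442035 to 18894312 in the doxorubicin experiment. YEATS4 had 625, 608 and 621 normalized reads in WT, 386, 337 and 325 in GAS41-KO, 2887, 3499.5 and 3372 in wt rescue and 2551, 2358 and 2538 in mut rescue, and the reads do not separate the introduced copy from the chromosomal gene. Of 7 colon epithelium markers, KRT8, KRT18, KRT19 and CDX2 were present in every group, VIL1 was at or near 0 in the GAS41 experiment, and EPCAM and CDH1 differed between groups there: EPCAM had means of 7503 in WT, 915 in GAS41-KO, 9012 in wt rescue and 1670.2 in mut rescue, and CDH1 1419, 138, 1349.8 and 163. The 15 fibroblast, endothelial and blood markers, of which 9 are in the GAS41 table, summed to 279 to 321 normalized reads in WT, almost all from COL1A1. In GAS41-KO they summed to 263 to 336, mostly from COL1A1. Without COL1A1 the sums were 15.3 to 18.9 in WT and 39.9 to 58.4 in GAS41-KO. In the rescues the sums including COL1A1 were 172 to 195 with wild-type and 292 to 360 with mutant GAS41. In the doxorubicin experiment, where 13 are in the table, they were 267 to 357 in DMSO and 343 to 435 after treatment. PTPRC and CDH5 were at 0 in all WT libraries. The median of 40 long transcripts, such as MACF1, DST and HUWE1, also moved with the groups: relative to WT, on the log2 scale, it was 0.09 to 0.15 in GAS41-KO, -0.16 to -0.03 in wt rescue and -0.01 to 0.25 in mut rescue, and relative to DMSO -0.19 to 0.12 in doxorubicin and -0.12 to 0.15 among the DMSO libraries themselves. Within wt rescue, replicate 1 (-0.03) stood apart from replicates 2 and 3 (-0.16 and -0.14), and within mut rescue replicate 3 (0.25) stood apart from replicates 1 and 2 (0.08 and -0.01). The part of the marker genes in the results below was not tested, and results that rest on the libraries that stand apart are given with and without them. Counts of members under such alternatives are given without the share of all genes called under the same alternative.

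Mitochondrial ribosomal protein genes took a smaller share of all reads in GAS41-KO than in WT, and the share was higher in wt rescue than in any other group. The 77 genes together took 0.543% ± 0.004 of a library's reads in WT, 0.417% ± 0.005 in GAS41-KO, 0.614% ± 0.021 in wt rescue and 0.467% ± 0.022 in mut rescue (SD, n = 3 each). None of the 4 groups overlapped: the lowest mut rescue library (0.443%) lay above the highest GAS41-KO library (0.423%), and the lowest wt rescue library (0.590%) above the highest WT library (0.548%). In the doxorubicin experiment the share was 0.648% ± 0.029 in DMSO and 0.567% ± 0.028 after doxorubicin (SD, n = 3), 0.619% to 0.678% against 0.546% to 0.599%, again without overlap. In bulk RNA, fewer cells that express a gene and less RNA of it per cell cannot be told apart.

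**Figure D1:**
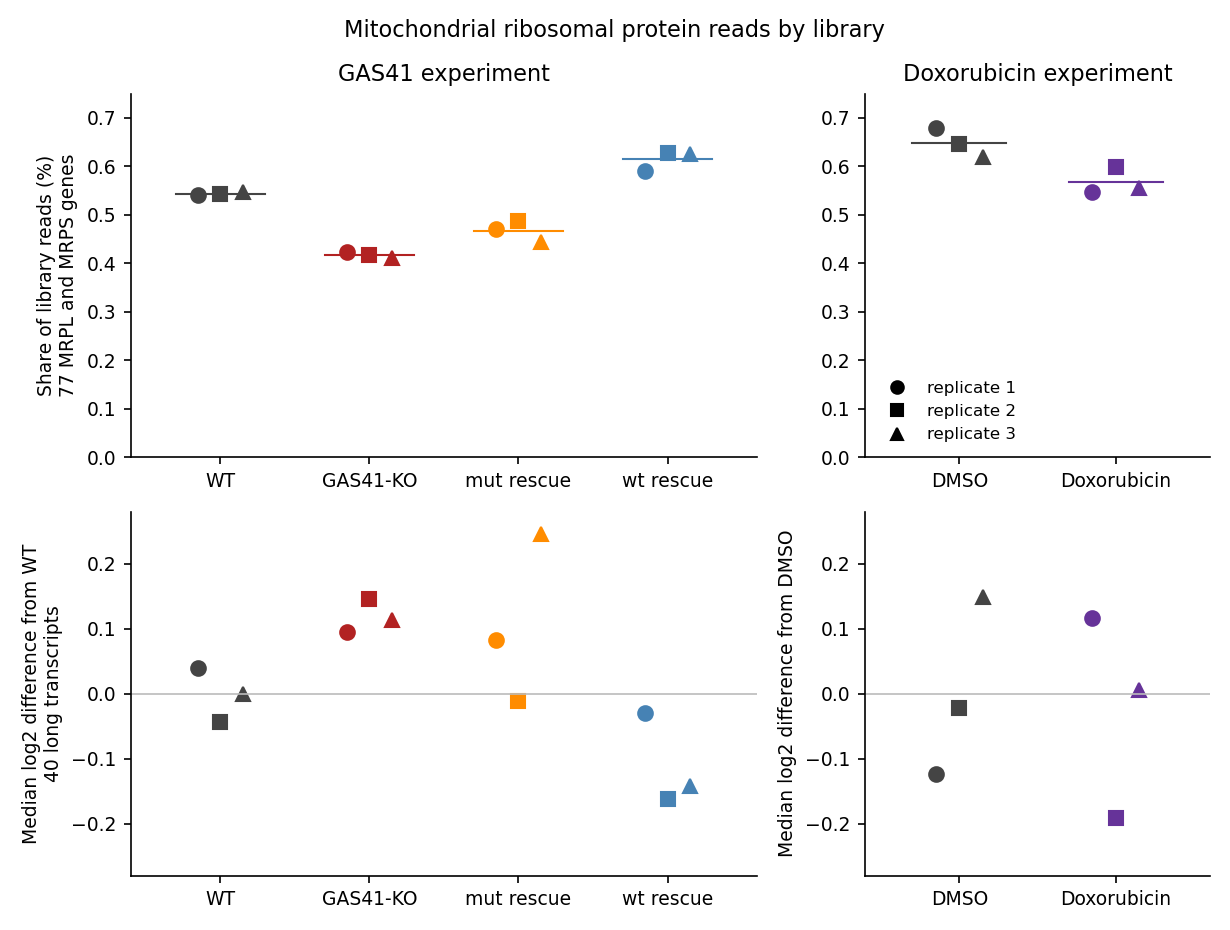
Upper panels plot the share of each library's reads (%) taken by the 77 genes, and lower panels the median log2 difference of 40 long transcripts from WT or DMSO; each point is a library, its shape the replicate, the upper lines are group means and the grey lines mark 0. The share is lowest in GAS41-KO (0.412% to 0.423%) and highest in wt rescue (0.590% to 0.627%), and within wt rescue and mut rescue it is lower in the library whose long transcripts are higher.

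GAS41-KO against WT asked what loss of GAS41 changes. Of the 77 genes, 57 fell in GAS41-KO and 1 rose (limma on the deposited log2 values, Benjamini-Hochberg adjusted p under 0.05 over 14505 genes; log2 changes throughout are on that scale), beside 26.6% of all genes tested that fell and 26.0% that rose. Their median log2 change was -0.30, beside -0.01 over all genes, and the 2 groups of libraries did not overlap for 68 of the 77, beside 69.0% of all genes. The size factors are medians of read ratios over genes, so the median over all genes lies near 0 by construction in every comparison. The falls were spread over both sets of names: 35 of 48 MRPL genes fell (median -0.30) and 22 of 29 MRPS genes (median -0.29). This split is by symbol, so the MRPS set includes MRPS30 and MRPS36, which fell, and MRPS18A, which was not called. By the lists of origin used, 23 of 30 MRPL and 12 of 18 MRPS genes with bacterial homologues fell, as did 12 of 18 MRPL and 9 of 10 MRPS genes without them. These lists place MRPL55, which was not called, among the genes with bacterial homologues, and that placement was not checked. Most of the changes were modest on the deposited scale, since 13 of the 77 were lower by at least 0.5, a size reached by 6.12% of all genes. That scale compresses changes, more so at lower read numbers. The log2 changes are therefore smaller than log2 ratios of normalized reads, and their sizes are not directly comparable between genes of different level.

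On the deposited scale, by which changes are ranked here and below, the largest falls were in MRPS15, MRPL24, MRPL11 and MRPL3. MRPS15, a small-subunit protein with a bacterial homologue, had 1626, 1719 and 1799 normalized reads in the WT libraries and 865, 865 and 818 in the GAS41-KO libraries. Every knockout library was at about the same level, far below every WT library, and MRPS15 fell by 0.90 ± 0.07 (SE, adjusted p = 4.23e-08) on the log2 scale, a mean 50.5% lower. MRPL24, a large-subunit protein, had 1221, 1214 and 1199 in WT and 661, 653 and 635 in GAS41-KO. It fell by 0.77 ± 0.07 (SE, adjusted p = 1.88e-07), and the libraries within each group lay close together. MRPL11, which sits at the base of the stalk where translation factors bind, had 1746, 1843 and 1827 against 1016, 1032 and 981 and fell by 0.75 ± 0.07 (SE, adjusted p = 2.12e-07). MRPL3, one of the proteins near the catalytic core of the large subunit, had 4207, 4118 and 4266 against 2519, 2306 and 2471; it fell by 0.75 ± 0.07 (SE, adjusted p = 2.75e-07) and had more reads, not adjusted for length, than any other member in WT. MRPL12, which forms the flexible stalk and has also been described as a partner of the mitochondrial RNA polymerase, fell by 0.43 ± 0.09 (SE, adjusted p = 0.000902), from 2514 ± 77.1 to 1832 ± 108 normalized reads (SD, n = 3). MRPS27, a pentatricopeptide-repeat protein, fell by 0.33 ± 0.07 (SE, adjusted p = 0.00095), and MRPL51, also among the 3 members with the most reads, fell by 0.42 ± 0.07 (SE, adjusted p = 6.67e-05). MRPS12, a protein of the decoding centre, had 836, 880.2 and 889.9 against 615, 652 and 606 and fell by 0.40 ± 0.08 (SE, adjusted p = 0.000789). MRPS30, despite its name a large-subunit protein, fell by 0.37 ± 0.08 (SE, adjusted p = 0.001).

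MRPS6 was the 1 member that rose in GAS41-KO. This small-subunit protein with a bacterial homologue had 417, 433 and 437 normalized reads in WT and 591, 509 and 548 in GAS41-KO, without overlap, and rose by 0.27 ± 0.07 (SE, adjusted p = 0.00239). Among the 19 members that did not pass the test were MRPS18A (-0.05, adjusted p = 0.692), MRPL41 (0.04, adjusted p = 0.81), a large-subunit protein also studied as a regulator of cell growth, and MRPS28 (-0.17, adjusted p = 0.0712). MRPS36, the dehydrogenase subunit, fell by 0.18 ± 0.06 (SE, adjusted p = 0.0315), a call that was lost on leaving out WT replicate 1 or 3 or GAS41-KO replicate 2 or 3.

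The 3 MRPS18 genes encode related proteins that occupy different places in the ribosome, and in GAS41-KO 2 of them fell while the third did not pass the test; the difference between them was not tested. MRPS18B had 1905, 1912 and 1804 normalized reads in WT and 1120.4, 1071 and 1072 in GAS41-KO and fell by 0.71 ± 0.08 (SE, adjusted p = 2.50e-06). MRPS18C, the counterpart of the bacterial protein, had 419, 399 and 392 in WT against 269, 270.2 and 266 in GAS41-KO and fell by 0.42 ± 0.06 (SE, adjusted p = 2.80e-05). MRPS18A, the paralogue in the large subunit, had 794, 903 and 875 in WT and 906, 753 and 822 in GAS41-KO, and these ranges overlapped. The start regions of these 3 genes are printed because their calls differ, and those of MRPL3 and MRPS34 because they are among the members that fell most in the knockout, after doxorubicin or both; MRPS6, the member that rose, completes the set. Each is the RefSeq window (GRCh38.p14) from 250 bases before to 50 bases after the annotated start, 5′ to 3′ on the strand of the gene. They lie at chr6:43687742-43688041 (minus strand) for MRPS18A, chr6:30617590-30617889 (plus strand) for MRPS18B, chr4:83455808-83456107 (plus strand) for MRPS18C, chr3:131502922-131503221 (minus strand) for MRPL3, chr16:1773085-1773384 (minus strand) for MRPS34 and chr21:34073328-34073627 (plus strand) for MRPS6, and capitals mark a match to 1 of 4 motifs described after them.
MRPS18A: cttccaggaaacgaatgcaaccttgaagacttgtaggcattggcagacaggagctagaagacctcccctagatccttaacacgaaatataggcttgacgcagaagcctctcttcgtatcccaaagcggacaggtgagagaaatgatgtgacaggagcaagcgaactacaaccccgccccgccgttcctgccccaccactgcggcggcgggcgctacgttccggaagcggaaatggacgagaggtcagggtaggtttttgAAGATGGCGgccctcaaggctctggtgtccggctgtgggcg
MRPS18B: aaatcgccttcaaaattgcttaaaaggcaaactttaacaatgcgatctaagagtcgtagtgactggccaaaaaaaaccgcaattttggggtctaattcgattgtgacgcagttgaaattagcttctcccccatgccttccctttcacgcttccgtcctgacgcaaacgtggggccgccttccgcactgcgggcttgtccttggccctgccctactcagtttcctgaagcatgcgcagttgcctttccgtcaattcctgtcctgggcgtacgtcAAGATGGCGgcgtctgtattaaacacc
MRPS18C: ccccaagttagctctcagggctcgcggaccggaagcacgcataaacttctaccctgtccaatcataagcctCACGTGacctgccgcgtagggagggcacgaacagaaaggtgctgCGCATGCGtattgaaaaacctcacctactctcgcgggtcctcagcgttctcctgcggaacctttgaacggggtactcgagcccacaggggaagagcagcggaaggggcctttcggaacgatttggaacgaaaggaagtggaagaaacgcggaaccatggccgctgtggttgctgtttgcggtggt
MRPL3: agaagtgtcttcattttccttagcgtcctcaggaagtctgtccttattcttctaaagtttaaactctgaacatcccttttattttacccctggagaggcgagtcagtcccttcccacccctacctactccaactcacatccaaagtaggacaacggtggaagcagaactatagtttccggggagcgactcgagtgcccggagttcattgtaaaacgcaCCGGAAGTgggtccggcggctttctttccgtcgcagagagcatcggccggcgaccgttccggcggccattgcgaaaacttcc
MRPS34: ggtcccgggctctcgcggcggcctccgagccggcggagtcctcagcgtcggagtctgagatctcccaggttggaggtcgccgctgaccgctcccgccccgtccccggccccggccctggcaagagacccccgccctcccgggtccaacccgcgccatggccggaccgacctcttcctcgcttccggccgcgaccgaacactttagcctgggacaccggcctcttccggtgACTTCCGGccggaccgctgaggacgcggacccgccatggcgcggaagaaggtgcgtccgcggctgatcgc
MRPS6: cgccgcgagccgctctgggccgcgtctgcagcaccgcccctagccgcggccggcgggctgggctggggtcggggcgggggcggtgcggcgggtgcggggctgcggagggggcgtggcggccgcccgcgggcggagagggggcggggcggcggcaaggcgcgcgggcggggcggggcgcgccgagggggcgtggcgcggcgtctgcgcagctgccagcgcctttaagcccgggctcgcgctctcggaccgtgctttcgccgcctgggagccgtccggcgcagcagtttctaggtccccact

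The motifs were searched on both strands: CACGTG, the E-box bound by MYC and its relatives; CCGGAAGT, a core of sites for ETS factors such as GABP; AAGATGGCG, the core of a site for YY1; and CGCATGCG, the core of a site for NRF1. None of the 4 contains another. RefSeq windows were found for 69 of the 77 members. The 27305 genes set beside them are not limited to the genes tested here, whereas all 77 members were tested, so the shares come from unlike sets. AAGATGGCG was in a window of 13 of them (18.8%, beside 2.14% of all 27305 genes with a window), CCGGAAGT in 12 (17.4%, beside 4.95%), CACGTG in 10 (14.5%, beside 8.77%) and CGCATGCG in 3, MRPL17, MRPL22 and MRPS18C (4.35%, beside 2.46%). Of the windows printed, those of MRPS18A and MRPS18B hold AAGATGGCG, that of MRPS18C holds CACGTG and CGCATGCG, those of MRPL3 and MRPS34 hold CCGGAAGT, and that of MRPS6 holds none of the 4. MRPS18A and MRPS18B thus share a motif, with MRPS18B called and MRPS18A not. Across members, the median log2 change in GAS41-KO was -0.29 for the 13 genes with AAGATGGCG and -0.27 for the 56 without it, -0.30 for the 12 with CCGGAAGT and -0.27 for the 57 without, and -0.24 for the 10 with CACGTG and -0.30 for the 59 without. After doxorubicin, described further on, the corresponding medians were -0.06 with and -0.20 without AAGATGGCG, -0.15 and -0.21 for CCGGAAGT, and -0.14 and -0.21 for CACGTG. For the 3 genes with CGCATGCG the median was -0.28 in GAS41-KO, as for the 66 without, and -0.42 after doxorubicin, against -0.19 without. These are descriptions of letters in a fixed window and carry no test.

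Wild-type GAS41 put back into GAS41-KO cells asked which changes depend on the protein. In wt rescue 74 of the 77 genes rose over GAS41-KO and 0 fell, beside 33.0% of all genes that rose and 33.0% that fell, with a median log2 change of 0.54 (limma). At an unadjusted p under 0.05 (limma) the count of falls was also 0, beside 5018 of all 14505 genes. The groups did not overlap for 75 of the 77, beside 68.8% of all genes. The 3 members that did not pass were MRPL41 (0.26, adjusted p = 0.0552), MRPS25 (0.02, adjusted p = 0.766) and MRPS14 (0.03, adjusted p = 0.696), named after their values were seen. MRPS18B rose most: its wt rescue libraries had 2406, 2978 and 2698 normalized reads, above all knockout libraries, and it rose by 1.20 ± 0.08 (SE, adjusted p = 4.72e-09). MRPS15 (1831, 2108 and 2112) rose by 1.12 ± 0.07 (SE, adjusted p = 2.67e-09), and MRPL11 (2019.9, 2463 and 2333) rose by 1.06 ± 0.07 (SE, adjusted p = 3.15e-09). MRPL24, at 1386, 1580.3 and 1567, rose by 1.06 ± 0.07 (SE, adjusted p = 3.69e-09). In each of these 4 genes replicate 1 was the lowest wt rescue library and still lay above every GAS41-KO library. MRPS18C rose by 0.73 ± 0.06 (SE, adjusted p = 4.15e-08) and MRPS18A rose by 0.43 ± 0.09 (SE, adjusted p = 0.000473), so all 3 paralogues were higher than in the knockout. With wt rescue replicate 1 as the only library of its group, its spread taken from the other groups, 70 of the 80 tested members were higher, without that library 74 were, and with the median of the long transcripts as a covariate, an alternative added after seeing the data, 56 were; under that covariate the calls of MRPS18A and MRPS28 were among those lost.

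Fewer members rose with the protein carrying Y74A and W93A. In mut rescue 22 of the 77 genes rose over GAS41-KO and 0 fell, beside 5.92% of all genes that rose and 9.0% that fell, and the median log2 change was 0.16 (limma). At an unadjusted p under 0.05 (limma) the counts were 40 and 0, beside 1921 higher and 2149 lower of all 14505 genes. The groups did not overlap for 41 of the 77, beside 33.7% of all genes. MRPS18B had 1469, 1672 and 1309.8 normalized reads in mut rescue, above the knockout libraries and below the wt rescue libraries, and rose by 0.40 ± 0.08 (SE, adjusted p = 0.00386) over GAS41-KO. MRPL3 (3374, 3043 and 2992) rose by 0.35 ± 0.07 (SE, adjusted p = 0.00367). MRPL39, a large-subunit protein found in mitochondria but not bacteria, had 495, 465 and 453 in GAS41-KO and 651, 676 and 572 in mut rescue and rose by 0.34 ± 0.06 (SE, adjusted p = 0.00125). MRPS35, a small-subunit protein of the same kind, rose by 0.34 ± 0.07 (SE, adjusted p = 0.00284). The count rested on single libraries: it was 5 without mut rescue replicate 1, 13, 7 and 6 without GAS41-KO replicate 1, 2 and 3, 28 without mut rescue replicate 3, and 45 with the long-transcript median as a covariate. Of the genes named in this paragraph, none lost its call on leaving out a library.

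Set against each other directly, the 2 rescues differed in most members. Of the 77 genes, 68 were lower in mut rescue than in wt rescue and 0 higher, beside 31.3% and 29.8% of all genes, with a median log2 difference of -0.42 (limma). At an unadjusted p under 0.05 (limma) the counts were 70 and 0, beside 4774 lower and 4617 higher of all 14505 genes. The groups did not overlap for 66 of the 77, beside 57.9% of all genes. MRPL11 differed most: its mut rescue libraries had 1054, 1121 and 985 normalized reads against 2019.9, 2463 and 2333 in wt rescue, a difference of -1.01 ± 0.07 (SE, adjusted p = 9.97e-09). For MRPS15 the mut rescue values were 1020.2, 1131 and 933 and the difference -0.88 ± 0.07 (SE, adjusted p = 7.17e-08). MRPS23, a small-subunit protein without a bacterial homologue, had 1578, 1710.2 and 1529 against 2585, 3214 and 3132, a difference of -0.83 ± 0.08 (SE, adjusted p = 6.50e-07). MRPL12 had 1932, 2488 and 1828 against 3490.0, 4042 and 3695, a difference of -0.81 ± 0.09 (SE, adjusted p = 1.85e-06); its mut rescue replicate 2 stood well above the other two. MRPL41 did not pass (-0.22, adjusted p = 0.105). With wt rescue replicate 1 alone in its group 54 of the 80 tested members were lower, and with the long-transcript covariate 35. Without mut rescue replicate 3 the count was 67, and without wt rescue replicate 1 it was 70. Under that covariate the difference in MRPS18A went from -0.34 to 0.011. YEATS4 itself was lower in mut rescue (-0.37, adjusted p = 0.000443), so the rescues differed in the amount of YEATS4 RNA as well as in the protein it encodes, and the parts of these in the difference cannot be told apart.

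Most members were higher in wt rescue than in WT itself. In wt rescue 61 of the 77 genes were higher than in WT and 0 lower, beside 27.4% and 22.7% of all genes, and the median was 0.29 (limma). At an unadjusted p under 0.05 (limma) the counts were 63 and 0, beside 4475 higher and 3728 lower of all 14505 genes. The groups did not overlap for 63 of the 77, beside 57.3% of all genes. MRPL49, a large-subunit protein without a bacterial homologue, had 2562, 3016 and 2730.2 normalized reads against 1836, 1809 and 1693 in WT and rose by 0.59 ± 0.07 (SE, adjusted p = 1.80e-05). MRPS23 (1919, 1880.3 and 2026 in WT) rose by 0.57 ± 0.08 (SE, adjusted p = 0.000107), MRPL12 (2435, 2589 and 2517) rose by 0.54 ± 0.09 (SE, adjusted p = 0.000279), and MRPS6 (595, 696 and 708 against 417, 433 and 437) rose by 0.50 ± 0.07 (SE, adjusted p = 4.99e-05). The lowest wt rescue library was above the highest WT library in each of these 4 genes. This count depended on which wt rescue libraries were used: with replicate 1 alone 20 of the 80 tested members were higher, and with the long-transcript covariate 11. The calls of MRPL3, MRPL11, MRPL24, MRPL41, MRPL51, MRPL53, MRPS15, MRPS18A, MRPS18C and MRPS34 were lost in both settings, and without replicate 1 the count was 65. The shares of all genes called in these settings are not given, so the counts cannot be set against a background. YEATS4 RNA in wt rescue was 5.26-fold that of WT.

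In mut rescue, 30 of the 77 genes stayed lower than in WT and 2 were higher, beside 22.9% of all genes lower and 23.5% higher, with a median of -0.15; the groups did not overlap for 39 of the 77, beside 56.0% of all genes. MRPL11 was furthest below WT: its mut rescue libraries, given above, lay at or just above the knockout ones, and the difference from WT was -0.70 ± 0.07 (SE, adjusted p = 6.40e-07). MRPS15 differed by -0.67 ± 0.07 (SE, adjusted p = 1.78e-06). MRPL23, a protein at the exit tunnel of the large subunit, had 782, 896 and 835 normalized reads in WT, 450.0, 485 and 418 in GAS41-KO and 479.7, 579.7 and 409 in mut rescue, a difference of -0.64 ± 0.09 (SE, adjusted p = 2.19e-05) from WT. MRPL24 differed by -0.48 ± 0.07 (SE, adjusted p = 4.30e-05). Above WT were MRPS6 (0.31, adjusted p = 0.00127) and MRPL10 (0.19, adjusted p = 0.0418). On leaving out 1 library at a time the number lower ranged from 24 to 41 over the 80 tested members, of which 31 were lower with all libraries. Without mut rescue replicate 3 the number was 24, and with the long-transcript covariate 29.

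**Figure D2:**
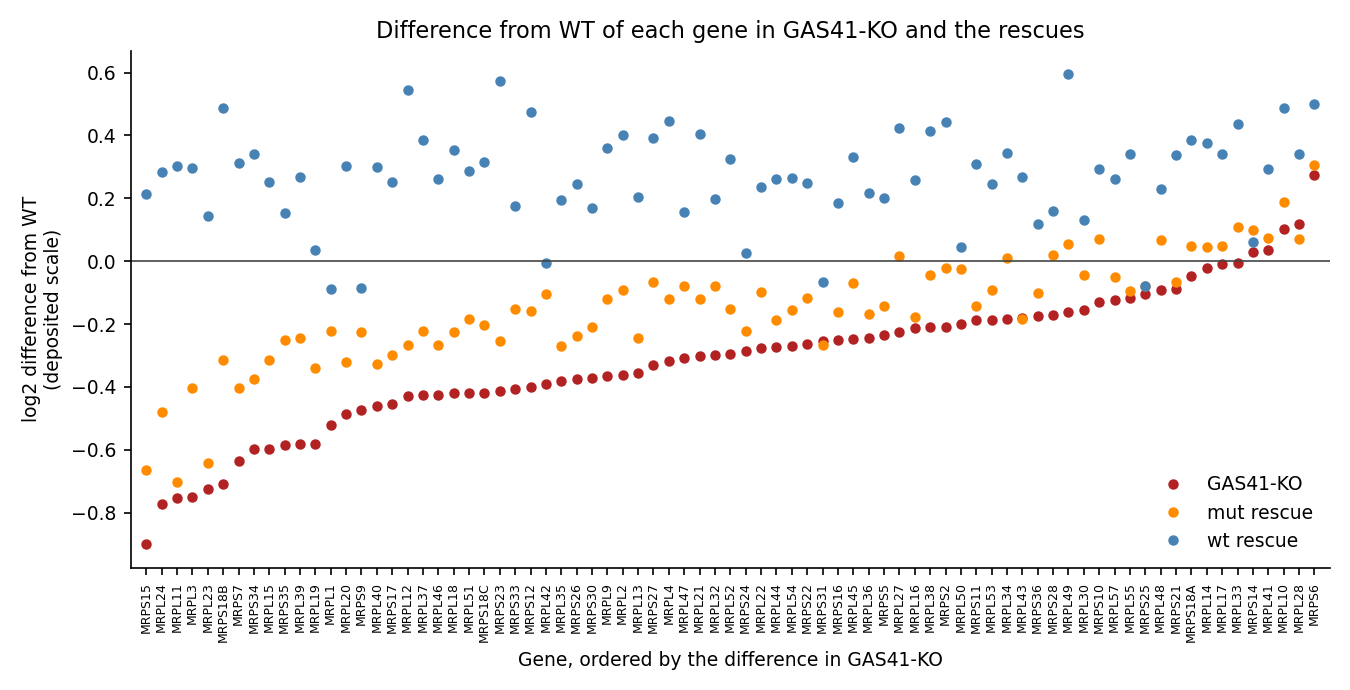
The vertical axis is the log2 difference from WT on the deposited scale, and the 77 genes are ordered along the horizontal axis by their difference in GAS41-KO; red points are GAS41-KO, orange mut rescue and blue wt rescue. From MRPS15 (-0.90 in GAS41-KO) to MRPS6 (0.27) the orange point lies between the red and the blue one in 73 of the 77 genes. This was counted for the members only, so no share of all genes stands beside it.

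The 4 groups took the same order in most members. On the log2 scale GAS41-KO had the lowest group mean in 70 of the 77 genes, wt rescue the highest in 71, and the full order GAS41-KO, mut rescue, WT, wt rescue was seen in 56. The comparisons share libraries, so this is a description of group means and no further test. These orders, and the calls in all or none of the 6 comparisons given next, were counted for the members only. No share of all genes therefore stands beside them. The genes called in all 6 comparisons of this experiment number 8: MRPS18B, MRPS15, MRPL24, MRPL3, MRPL39, MRPL15, MRPS18C and MRPL51. Of these, MRPS15, MRPS18C, MRPL51 and MRPL24 lost their call in mut rescue against GAS41-KO on leaving out GAS41-KO replicate 3, and all but MRPL24 also on leaving out GAS41-KO replicate 2 or mut rescue replicate 1. MRPL15 was not among the 24 named members followed in the alternatives, so its losses are not listed here. It was not among the 5 members still called in that comparison without mut rescue replicate 1. In mut rescue against WT, MRPL51 lost its call without WT replicate 1 or 3 or mut rescue replicate 3 and with the long-transcript covariate, and MRPS18C without WT replicate 1. In wt rescue against WT, MRPS15 lost its call without WT replicate 1 or 2 or wt rescue replicate 2 or 3, and MRPS15, MRPL3, MRPL24, MRPL51 and MRPS18C with wt rescue replicate 1 alone. With the long-transcript covariate MRPL39, MRPS15, MRPL3, MRPL24, MRPL51 and MRPS18C lost their calls in that comparison. MRPS14 and MRPS25, both small-subunit proteins, were called in none of the 6. MRPS14 had 463, 479.7 and 463 normalized reads in WT, 536, 459 and 449 in GAS41-KO, 497, 492 and 493 in wt rescue and 543, 546 and 451 in mut rescue, and all 4 groups overlapped with at least 1 other. MRPS25 had 1005, 925 and 976 in WT, 866, 923 and 887 in GAS41-KO, 991, 859.5 and 879 in wt rescue and 886, 865 and 978 in mut rescue.

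Doxorubicin against DMSO asked how the same genes respond to DNA damage in cells whose YEATS4 gene was not targeted. After 500 nM doxorubicin 44 of the 77 genes fell and 6 rose, beside 33.4% of all 14195 genes tested that fell and 32.3% that rose, with a median log2 change of -0.21 beside -0.01. The libraries of the 2 groups did not overlap for 46 of the 77, beside 69.1% of all genes. Colon epithelium markers moved with the treatment: 6 of 7 rose and EPCAM fell, with KRT8 at 41323 and 91614 mean normalized reads in DMSO and doxorubicin, KRT19 at 15759 and 36919, EPCAM at 7198 and 4938, and VIL1 at 0.32 and 46.5. The summed level of the 7 was 72241 to 87962 in DMSO and 145916 to 165100 after doxorubicin, and its part in the members' changes was not tested. The members' changes ran from -1.28 to 1.01. By the same lists of origin, with MRPL55 again not called, falls came from 20 of 30 MRPL and 10 of 18 MRPS genes with bacterial homologues. They also came from 6 of 18 MRPL and 7 of 10 MRPS genes without.

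MRPL24 fell most, from 1732, 1625 and 1543 normalized reads in DMSO to 546, 603 and 539.6 after doxorubicin. It fell by 1.28 ± 0.07 (SE, adjusted p = 4.14e-09) on the log2 scale, and its treated mean was 65.5% below the DMSO mean. MRPS34, a small-subunit protein without a bacterial homologue, went from 3639, 3240.1 and 3093 to 1301, 1568 and 1227 and fell by 1.17 ± 0.09 (SE, adjusted p = 1.21e-07). MRPS35 (1995, 1709.9 and 1877 against 959, 979 and 983) fell by 0.81 ± 0.07 (SE, adjusted p = 3.62e-07). MRPL3 (5470.1, 4627 and 4811 against 2751, 2795 and 2749) fell by 0.80 ± 0.08 (SE, adjusted p = 9.04e-07). In these 4 genes every treated library lay far below every DMSO library. MRPL12 went from 5484, 4783 and 4171 to 2739.9, 3271 and 2727 and fell by 0.68 ± 0.10 (SE, adjusted p = 4.88e-05). MRPS18B fell by 0.53 ± 0.07 (SE, adjusted p = 2.34e-05) and MRPS18C fell by 0.31 ± 0.08 (SE, adjusted p = 0.00434), whereas MRPS18A had a log2 change of 0.11 (adjusted p = 0.296). MRPS28 fell by 0.51 ± 0.09 (SE, adjusted p = 0.000148), MRPS30 fell by 0.47 ± 0.06 (SE, adjusted p = 2.26e-05) and MRPS36 fell by 0.35 ± 0.07 (SE, adjusted p = 0.000606). MRPS12 (-0.04, adjusted p = 0.755), MRPL41 (-0.11, adjusted p = 0.291) and MRPL37, one of the 3 members with the most reads here (-0.05, adjusted p = 0.568), did not pass.

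Of the 6 members that rose, MRPS6 was the largest: 450.4, 417 and 449 normalized reads in DMSO and 1049.9, 1179.7 and 987 after doxorubicin, a 2.44-fold higher mean, and it rose by 1.01 ± 0.07 (SE, adjusted p = 5.59e-08). MRPL39 had 1102, 849 and 889.6 in DMSO and 1547, 1715 and 1725 after doxorubicin and rose by 0.71 ± 0.09 (SE, adjusted p = 9.06e-06). MRPL49 (2302, 2024 and 2085 against 2836, 2893 and 2799.5) rose by 0.38 ± 0.07 (SE, adjusted p = 0.00031). MRPL53, a large-subunit protein without a bacterial homologue, rose by 0.32 ± 0.07 (SE, adjusted p = 0.00109). In each of these 4 the groups did not overlap. The other two were MRPL18 (0.20, adjusted p = 0.0491) and MRPL33 (0.20, adjusted p = 0.0444). Leaving out 1 library at a time gave 36 to 50 members lower, against 46 of the 80 tested with all libraries.

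**Figure D3:**
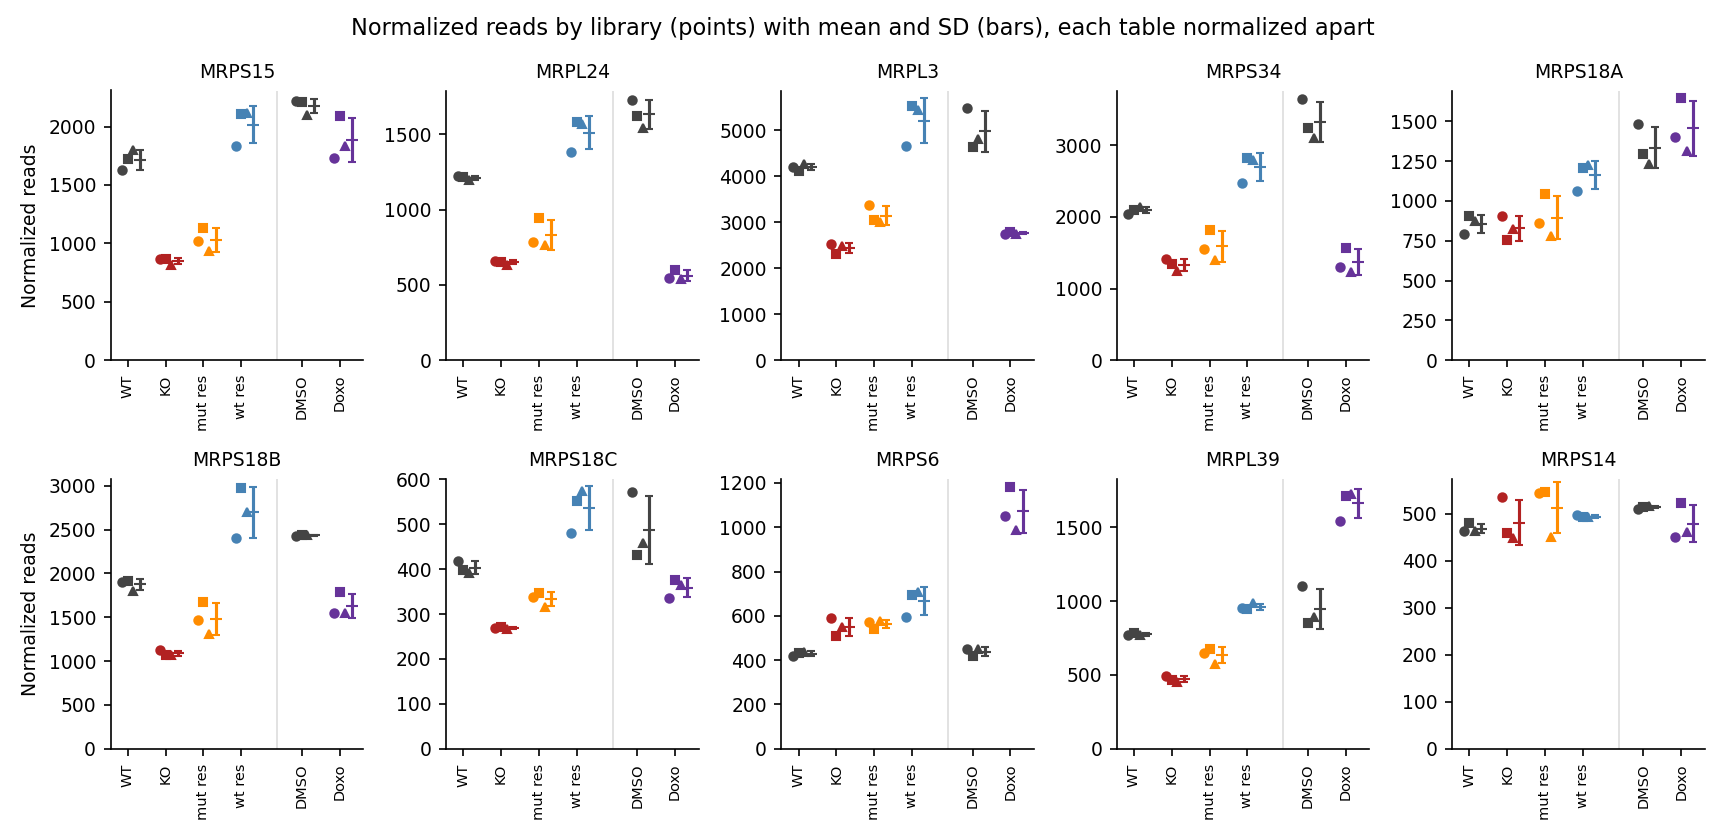
Normalized reads (vertical axes, from 0) of 10 members in each library, with the group mean and SD beside the points; the GAS41 groups stand left of the grey line and the doxorubicin groups right of it, and the 2 sides were normalized separately. MRPS15, MRPL24, MRPL3, MRPS34, MRPS18B and MRPS18C are lowest in GAS41-KO and highest in wt rescue within the GAS41 experiment, MRPS6 is lowest in WT, and MRPS14 changes in none of the comparisons.

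GAS41-KO against WT and doxorubicin against DMSO share no library, so their calls can be set side by side. Of the 57 members that fell in GAS41-KO, 37 (64.9%) also fell after doxorubicin, which is 84.1% of the 44 members that fell after doxorubicin. Among all 77 members, 57.1% fell after doxorubicin and 74.0% fell in GAS41-KO. Over the 13803 genes tested in both, 1980 fell in both, 51.8% of those that fell in GAS41-KO and 41.9% of those that fell after doxorubicin. MRPL39 and MRPL18 fell in GAS41-KO and rose after doxorubicin, and MRPS6 rose in both. MRPS15, which fell most in GAS41-KO, had 2215, 2207 and 2103 normalized reads in DMSO and 1733, 2091 and 1829.9 after doxorubicin. It fell by 0.19 ± 0.08 (SE, adjusted p = 0.0391), a call lost on leaving out DMSO replicate 1 or 2 or doxorubicin replicate 1 or 3. Across the 77 genes, which are not independent replicates, the log2 changes in the 2 comparisons had a Pearson correlation of 0.43 and a Spearman correlation of 0.34, against 0.24 and 0.31 across the 13803 genes. YEATS4 itself fell by 1.25 ± 0.07 (SE, adjusted p = 3.58e-09) after doxorubicin, from 694, 612 and 698 to 173, 193 and 188 normalized reads.

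**Figure D4:**
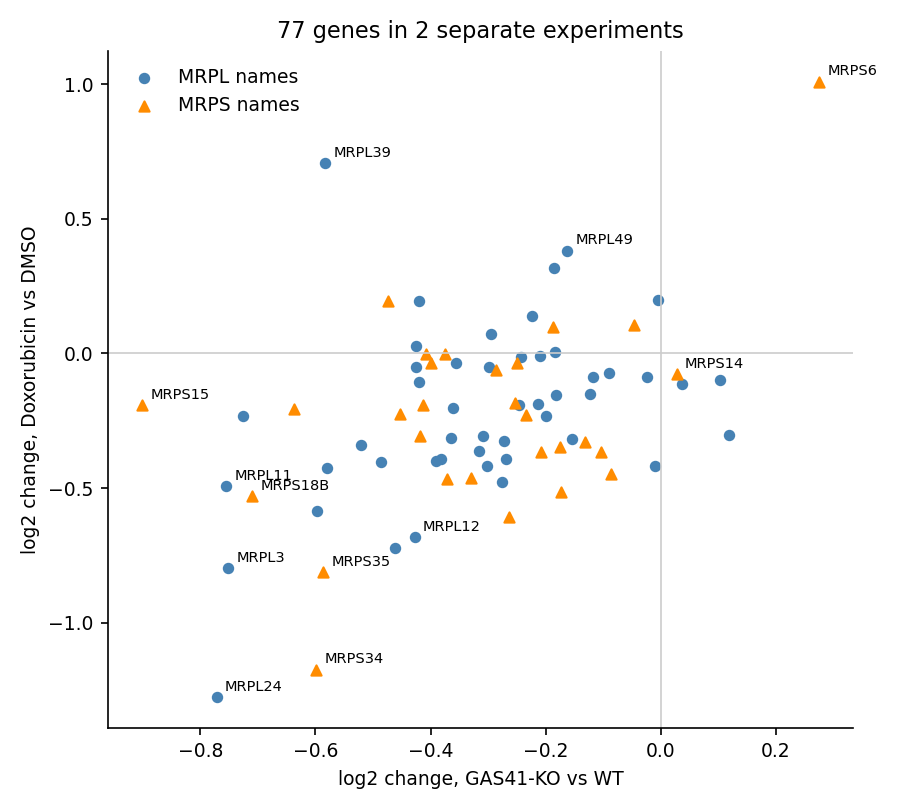
Each point is 1 of the 77 genes, with the log2 change in GAS41-KO against WT on the horizontal axis and in doxorubicin against DMSO on the vertical axis (deposited scale); circles are MRPL and triangles MRPS names. Most points lie at the lower left, with MRPL24 and MRPS34 lowest, MRPS15 furthest left, MRPS6 at the upper right and MRPL39 at the upper left.

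Several members lie over another gene in RefSeq, 18 of the 77 over a protein-coding one, and whether the counting used strand is not given in the sources used here, so reads of such neighbours may not be fully separated. MRPS6 overlaps SLC5A3, the inositol transporter gene, and their RefSeq windows are the same 300 bases, printed above. SLC5A3 rose by 0.66 ± 0.14 (SE, adjusted p = 0.000651) in GAS41-KO, from 1091, 893 and 1053 to 1748, 1675 and 1639 normalized reads, and fell by 0.97 ± 0.14 (SE, adjusted p = 1.27e-05) in wt rescue against GAS41-KO, where MRPS6 rose by 0.23 ± 0.07 (SE, adjusted p = 0.00712); after doxorubicin it had a log2 change of 0.28 (adjusted p = 0.0626). The MRPS6 call in wt rescue against GAS41-KO was lost with wt rescue replicate 1 alone and with the long-transcript covariate. MRPL24 overlaps HDGF, which encodes a growth factor and fell by 0.80 ± 0.07 (SE, adjusted p = 1.91e-07) in GAS41-KO and fell by 0.44 ± 0.07 (SE, adjusted p = 0.000148) after doxorubicin. MRPS34 overlaps EME2, at 61.4 ± 12.2 normalized reads in WT (SD, n = 3). MRPS24 had 27.5 ± 2.70 normalized reads in WT and 12.3 ± 6.01 in GAS41-KO (SD, n = 3) and overlaps the readthrough gene URGCP-MRPS24, to which its reads may have been assigned, so its values are uncertain. Genes with processed pseudogenes elsewhere in the genome can lose or gain reads in the same way.

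The 3 tested members that are not protein names did not pass the test in GAS41-KO against WT (log2 changes of -0.13 for MRPL23-AS1, -0.07 for MRPS31P5 and -0.02 for MRPL45P2). In wt rescue MRPL23-AS1 fell by 0.18 ± 0.07 (SE, adjusted p = 0.0373) against GAS41-KO, at 12.9, 13.6 and 11.4 against 19.95, 27.7 and 19.02 normalized reads, and MRPS31P5 fell by 0.19 ± 0.06 (SE, adjusted p = 0.0151), at 98.6, 84.5 and 102 against 132, 111 and 125. Both were also lower in wt rescue than in WT and, as most of the protein genes, after doxorubicin than in DMSO, and MRPS31P5 was lower in mut rescue than in WT. MRPL45P2 had 44.00 ± 5.09 in mut rescue and 26.9 ± 5.63 in wt rescue (SD, n = 3), a difference of 0.23 ± 0.07 (SE, adjusted p = 0.00985). The deposited scale compresses changes most at read numbers as low as these. On that scale 1 log2 unit above the lowest value corresponds to 39.1 normalized reads in the GAS41 experiment and 52.6 in the doxorubicin experiment.

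Ribosomal proteins under other symbols and the rest of the mitochondrial translation machinery were counted in the same fits. Of 6 ribosomal proteins under other symbols, 4 fell in GAS41-KO and 0 rose, and 5 rose in wt rescue over GAS41-KO; the shares over all genes were 26.6% lower and 26.0% higher in the first and 33.0% higher in the second. ICT1, the peptidyl-tRNA hydrolase now named MRPL58, had 965, 972 and 978 normalized reads in WT, 534, 546 and 581 in GAS41-KO, 1004, 1311 and 1342 in wt rescue and 747, 684 and 647 in mut rescue, without overlap between any 2 groups, and fell by 0.68 ± 0.08 (SE, adjusted p = 4.68e-06) in GAS41-KO. DAP3, the GTP-binding protein of the small subunit, had 2270.2, 2287 and 2311 in WT and 2288, 2277 and 2405 in GAS41-KO (0.02, adjusted p = 0.829), but rose by 0.35 ± 0.07 (SE, adjusted p = 0.000245) in wt rescue over GAS41-KO and fell by 0.34 ± 0.07 (SE, adjusted p = 0.000782) after doxorubicin.

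Of 21 ribosome assembly and rRNA modification factors, 13 fell in GAS41-KO and 0 rose, 17 rose and 1 fell in wt rescue over GAS41-KO, and 13 fell and 0 rose after doxorubicin. Over all genes 26.6% fell and 26.0% rose in GAS41-KO, 33.0% rose and 33.0% fell in wt rescue over GAS41-KO, and 33.4% fell and 32.3% rose after doxorubicin, shares against which the counts of this paragraph stand. DDX28, an RNA helicase of the large subunit's assembly, fell by 0.54 ± 0.06 (SE, adjusted p = 1.77e-06) in GAS41-KO, and ERAL1, a chaperone of the small subunit's RNA, fell by 0.51 ± 0.07 (SE, adjusted p = 8.46e-06). Of 15 mitochondrial translation factors 9 fell and 0 rose in GAS41-KO; GUF1, the mitochondrial relative of bacterial LepA, fell by 0.74 ± 0.07 (SE, adjusted p = 1.10e-07), and MTIF2, an initiation factor, fell by 0.79 ± 0.07 (SE, adjusted p = 1.46e-07). Among 22 mitochondrial aminoacyl-tRNA synthetases and amidotransferase subunits, 15 fell and 0 rose in GAS41-KO, 19 rose and 1 fell in wt rescue over GAS41-KO, and 16 fell and 3 rose after doxorubicin. QRSL1, an amidotransferase subunit, fell by 0.72 ± 0.06 (SE, adjusted p = 7.58e-08) in GAS41-KO.

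Of 10 genes for mitochondrial DNA maintenance and transcription, 6 fell and 1 rose in GAS41-KO, beside 26.6% and 26.0% of all genes. SSBP1, the mitochondrial single-stranded DNA binding protein, fell by 0.61 ± 0.07 (SE, adjusted p = 1.03e-06), and TFAM, which packages mitochondrial DNA, fell by 0.36 ± 0.09 (SE, adjusted p = 0.00266). POLRMT, the mitochondrial RNA polymerase, had a log2 change of -0.17 (adjusted p = 0.125) in GAS41-KO and fell by 0.51 ± 0.11 (SE, adjusted p = 0.00081) after doxorubicin. Among 8 nuclear regulators, 6 fell and 0 rose in GAS41-KO, beside the same shares, and 7 rose and 1 fell in wt rescue over GAS41-KO, beside 33.0% of all genes in each direction. MYC had 5716, 5814 and 5908 normalized reads in WT, 3572, 3645 and 3669 in GAS41-KO, 6531, 7833 and 7549 in wt rescue and 4872, 5951 and 4833 in mut rescue; it fell by 0.66 ± 0.08 (SE, adjusted p = 4.49e-06) in GAS41-KO and rose by 0.98 ± 0.08 (SE, adjusted p = 3.60e-08) in wt rescue over GAS41-KO. PPRC1 fell by 0.49 ± 0.07 (SE, adjusted p = 1.11e-05) and rose by 0.89 ± 0.07 (SE, adjusted p = 1.05e-08) in the same comparisons. After doxorubicin MYC fell by 0.17 ± 0.07 (SE, adjusted p = 0.0499), PPRC1 did not pass (-0.13, adjusted p = 0.137), and NRF1 fell by 0.97 ± 0.06 (SE, adjusted p = 2.79e-08), from 582, 632 and 570.5 to 236, 216 and 207 normalized reads. In none of the lists given here with 0 genes higher in GAS41-KO did a gene rise at an unadjusted p under 0.05 (limma), beside 4108 of all 14505 genes. Whether any of these regulators has a part in the changes of the ribosomal protein genes was not tested.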

How the data were processed

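RNA was measured in 18 libraries, 3 in each of 6 groups, while 26 further samples, ChIP libraries and their inputs, were left out. The deposited tables hold log2 values that the authors variance-stabilized after dividing the reads of each gene by 1 size factor per library, as read from the values themselves. Per the submitters' processing notes CASAVA 1.4, Trimmomatic 0.36, Bowtie 1.0.1, TopHat2 2.1.0, HTSeq, DESeq2 and the builds mm9 and hg19 were used, with no role or order given. Inverting the transformation gave whole reads (largest distance from a whole number 8.79e-09 and 7.28e-09, tolerance 0.01); normalized reads are these reads over the size factor. Genes with at least 10 reads in at least 3 libraries were tested with limma 3.58.1 (R 4.3.3, trend, 1 fit per table, all 12 libraries of the GAS41 experiment together), with Benjamini-Hochberg adjustment over all of them and a threshold of 0.05; the code was tested on simulated data. Precision rests on 3 libraries per group, and the labels call replicates biological without saying more.

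Named genes are the 4 largest rises and falls per comparison among members called without overlap, and a set of members, mitochondrial genes and regulators named whatever their values; the members and lists were chosen with earlier results of these data known. MRPL10, MRPL15, MRPL17, MRPL18, MRPL33, MRPS24 and the overlapping genes were named after their values were seen. Overlapping genes and start regions come from RefSeq (GRCh38.p14). Alternatives were no filter, voom with 2 scalings, quantile normalization, a replicate block, single libraries left out, wt rescue replicate 1 alone, only the groups compared, and the long-transcript median as a covariate. Same-numbered libraries correlated at -0.39 to 0.48 after centring on the group means. In the GAS41 experiment these values were 0.14 to 0.23 for replicate 1, 0.004 to 0.48 for replicate 2 and -0.39 to 0.09 for replicate 3. Differently numbered libraries there correlated at -0.53 to 0.49. The numbers were not taken as pairs, and counts with a replicate block are given below. Figures were drawn with matplotlib 3.10.9.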

Additional observations from a re-analysis of the deposited data

How the results depend on the processing

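Counts in this section are over the 80 tested members. Shares of all genes called under the same alternatives are not given, so whether members lost or gained calls more than other genes is not shown. In all alternatives tried, the count of members lower in GAS41-KO than in WT, higher in wt rescue than in GAS41-KO, lower in mut rescue than in WT and lower after doxorubicin stayed within 1.5 times the value given. The median of the 40 long transcripts as a covariate, added after seeing the data, gave 45 members higher in mut rescue than in GAS41-KO, 35 lower in mut rescue than in wt rescue, and 11 higher in wt rescue than in WT, and it turned the difference of MRPS18A between the rescues from -0.34 to 0.011. With wt rescue replicate 1 alone in its group, its spread assumed to be that of the other groups, 20 were higher than in WT. The causes were not tested. Leaving out 1 library at a time gave 5 to 28 members higher in mut rescue than in GAS41-KO, 48 to 53 lower in GAS41-KO than in WT, 72 to 74 higher in wt rescue than in GAS41-KO, 65 to 70 lower in mut rescue than in wt rescue, 47 to 65 higher in wt rescue than in WT, 24 to 41 lower in mut rescue than in WT and 36 to 50 lower after doxorubicin. Of 127 calls of 24 named members, 91 were kept in every alternative run for them. With the replicate number as a replicate block the counts, in the same order, were 24, 59, 75, 68, 62, 34 and 45, and no call of a named member changed. Read numbers limit MRPS24, MRPL45P2 and MRPL23-AS1 most, and the variance-stabilized scale compresses their changes strongly. The compression also reaches genes with more reads. NRF1, for example, had means of 595 normalized reads in DMSO and 220 after doxorubicin, at a log2 change of -0.97 on that scale.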
